A study of Saccharomyces cerevisiae with 6 samples.

Results

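The 9 yeast genes described here encode proteins that set the transcription of ribosome genes, and they were taken by ORF name from the 6212 ORFs listed for the arrays. They are *FHL1* (YPR104C), *CRF1* (YDR223W), *RAP1* (YNL216W), *HMO1* (YDR174W), *SCH9* (YHR205W), *STB3* (YDR169C), *DOT6* (YER088C), *TOD6* (YBL054W) and *MAF1* (YDR005C). Their response to rapamycin was compared in *ptc1 ptc6* double mutant cells, *ptc6* cells and wild type BY4741 cells, which all carry the auxotrophies of that laboratory strain and were grown in rich YPD medium. The mutants are deletion derivatives of BY4741 without the type 2C phosphatase Ptc6, or without both Ptc1 and Ptc6. A culture of each strain was divided, and 1 part received 200 ng/ml rapamycin, an inhibitor of TORC1, for 1 h while the other was mock-treated.

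RNA of both parts was hybridized together to 2-colour arrays of PCR-amplified ORFs, 2 arrays per strain with the dyes exchanged. In the *ptc1 ptc6* strain array 1 had the rapamycin-treated RNA in Cy5 and array 2 had it in Cy3. In the *ptc6* and wild type strains array 1 was the Cy3 array and array 2 the Cy5 array. Every value is a log2 ratio of rapamycin-treated to mock-treated cells of the same strain, so the level of an mRNA before treatment was not compared between strains. With 1 culture per strain there is no test of any difference between strains, and the spread between the arrays of a strain is technical. The SD given with a mean is that of its 2 arrays.

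TORC1 promotes ribosome synthesis when nutrients are plentiful. Its signal reaches promoters through kinases, of which Sch9 is a direct substrate, and through factors that sit on ribosomal protein genes or repress them and the ribosome biogenesis genes. Much of this control acts on the phosphorylation and location of the proteins, which arrays do not measure. The study asked whether Ptc6 takes part in it.

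Arrays carried values for 3620 to 4546 ORFs. Of the 9 regulators, 8 had a value on at least 1 array and 5 had a value on all 6 (*RAP1*, *HMO1*, *SCH9*, *DOT6* and *MAF1*). *TOD6* had none, as was true of 1098 ORFs. All 9 lie on 6 chromosomes where the mean log2 ratios of any pair of strains correlated across ORFs with a Pearson r between 0.96 and 0.98. On chromosome XII the r between *ptc1 ptc6* and wild type cells was 0.016 (186 ORFs), and on chromosome XIII it was 0.54 (196 ORFs). Between *ptc6* and wild type cells it was 0.97 on each (273 and 237 ORFs), and between *ptc1 ptc6* and *ptc6* cells it was 0.009 and 0.53. On these 2 chromosomes the *ptc1 ptc6* values are therefore not comparable with those of the other strains, and which of them stand beside the right ORF names was not tested. *PTC6* had a value on both wild type arrays and on no array of either mutant. *PTC1* was measured on 1 wild type array only, so the arrays do not check its deletion.

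Of 54 possible values of the regulators 42 were present, and 6 of them were past 2-fold (a log2 ratio above 1 or below -1). Of these, 5 belonged to *RAP1* and 1 to *SCH9*. By the mean of both arrays, 1 regulator was below -1 in each strain, and it was *RAP1* every time. That is 1 of 6 regulators with both values in *ptc1 ptc6* cells, 1 of 7 in *ptc6* cells and 1 of 6 in wild type cells, where 15.2%, 14.2% and 18.8% of all ORFs lay below -1. No regulator had a mean above 1, against 12.2% of all ORFs in *ptc1 ptc6* cells, 10.6% in *ptc6* cells and 14.7% in wild type cells. Past 2-fold in either direction were 27.4% of ORFs in *ptc1 ptc6* cells, 24.8% in *ptc6* cells and 33.5% in wild type cells. With so few genes, counts of 1 and 0 are near these shares. Below -1 on every array of every strain were 0 of the 5 regulators with all values, against 11% of ORFs. That 11% includes chromosomes XII and XIII, where *ptc1 ptc6* values are not comparable, and was not computed without them. The median size of the mean log2 ratio, without its sign, was 0.33 for the regulators and 0.56 for all ORFs in *ptc1 ptc6*, 0.29 and 0.50 in *ptc6*, and 0.27 and 0.63 in wild type cells.

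**Figure D1:**
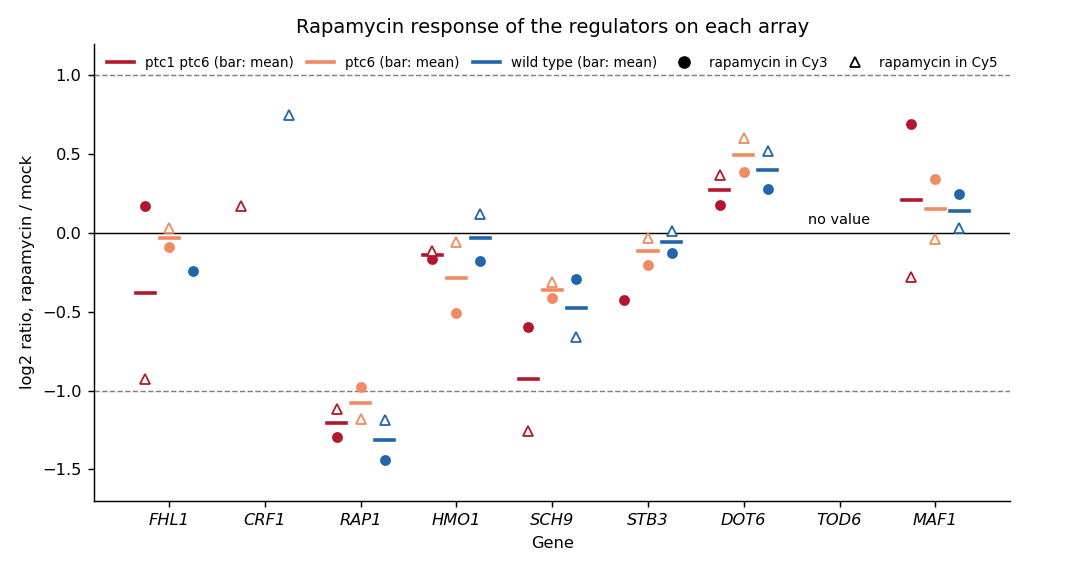
Log2 ratio of rapamycin-treated to mock-treated cells (vertical axis) for each regulator (horizontal axis) in *ptc1 ptc6* (red), *ptc6* (orange) and wild type cells (blue). Circles are arrays with rapamycin-treated RNA in Cy3, triangles those with it in Cy5, bars the mean where both arrays had a value, and dashed lines 2-fold. *RAP1* is the only gene with its mean below -1 in all 3 strains, and *DOT6* is above 0 on all 6 arrays.

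*RAP1* encodes the DNA-binding protein that opens the promoters of most ribosomal protein genes and also binds telomeres. Its log2 ratios on arrays 1 and 2 were -1.12 and -1.30 in *ptc1 ptc6*, -0.98 and -1.18 in *ptc6*, and -1.44 and -1.19 in wild type cells. Its mRNA was thus lower with rapamycin on every array. The means were -1.21 ± 0.13 in *ptc1 ptc6* cells, -1.08 ± 0.14 in *ptc6* cells and -1.32 ± 0.18 in wild type cells (SD, n = 2 arrays each). These correspond to a 2.31-fold, a 2.11-fold and a 2.49-fold lower level. The response placed *RAP1* in the lower part of the range and not at its end, since 12.6% of ORFs in *ptc1 ptc6* cells, 13.1% in *ptc6* cells and 15.1% in wild type cells had a lower mean. In *ptc6* cells the call rested on array 2, and array 1 lay just inside 2-fold.

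Rap1 belongs to the general regulatory factors, abundant proteins that keep promoters free of nucleosomes. *REB1*, another of them, had means of -0.87 in *ptc1 ptc6*, -0.59 in *ptc6* and -0.86 in wild type cells, within 2-fold in each by the mean. *ABF1* had -0.29, 0.04 and 0.02 in the same strains. *TBF1*, also listed with them, had -0.47 and -0.14 on the *ptc1 ptc6* arrays, -0.25 on wild type array 2 and no value in *ptc6* cells. The means of *RAP1*, *REB1* and *ABF1* therefore ran from near 0 for *ABF1* to below -1 for *RAP1* in *ptc6* and wild type cells.

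Fhl1 is the forkhead-like protein that recruits the coactivator Ifh1 to ribosomal protein promoters, and Crf1 is a corepressor, paralogous to Ifh1, that takes the place of Ifh1 on Fhl1 when TORC1 is inhibited. *FHL1* had log2 ratios of -0.93 and 0.17 on the *ptc1 ptc6* arrays, -0.09 and 0.03 on the *ptc6* arrays, and -0.24 on wild type array 1 with no value on array 2. The *ptc1 ptc6* arrays disagreed by 1.10 log2 units, and 2.42% of the ORFs of that strain disagreed by more, so their mean of -0.38 ± 0.78 says little. On both *ptc6* arrays *FHL1* was within 0.1 log2 units of 0.

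*CRF1* had a value on only 2 arrays, 0.17 on *ptc1 ptc6* array 1 and 0.75 on wild type array 2. Both arrays had rapamycin-treated RNA in Cy5, both values were positive and both lay within 2-fold. A mean could be given for no strain.

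*HMO1* encodes a high mobility group protein found on ribosomal protein promoters and on the ribosomal DNA. It had -0.12 and -0.16 in *ptc1 ptc6*, -0.51 and -0.06 in *ptc6*, and -0.18 and 0.12 in wild type cells. The means were -0.14 ± 0.03 in *ptc1 ptc6* cells, -0.29 ± 0.32 in *ptc6* cells and -0.03 ± 0.21 in wild type cells (SD, n = 2 arrays each). The ranges of all 3 strains overlapped. In wild type cells 97.2% of ORFs had a larger mean change than *HMO1*.

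Sch9 is the AGC-family kinase that TORC1 phosphorylates, and its activity favours expression of ribosome biogenesis genes. *SCH9* was the second lowest of the regulators in every strain. The log2 ratios were -1.26 and -0.59 in *ptc1 ptc6*, -0.41 and -0.31 in *ptc6*, and -0.29 and -0.66 in wild type cells, all below 0. Only array 1 of the *ptc1 ptc6* strain was past 2-fold. The means were -0.93 ± 0.47 in *ptc1 ptc6* cells, -0.36 ± 0.07 in *ptc6* cells and -0.48 ± 0.26 in wild type cells (SD, n = 2 arrays each). In the *ptc1 ptc6* strain a lower mean was found in 16.3% of ORFs, against 29.5% in the *ptc6* and 30.0% in the wild type strain.

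Stb3 represses ribosome biogenesis genes through the rRNA processing element of their promoters, and Dot6 and Tod6 do so through the PAC element. All 3 work with the Rpd3L histone deacetylase and are inactivated by Sch9. *STB3* had -0.43 on *ptc1 ptc6* array 2 and no value on array 1, -0.20 and -0.03 in *ptc6* cells, and -0.13 and 0.01 in wild type cells. The *ptc6* and wild type ranges overlapped around means of -0.12 ± 0.12 and -0.06 ± 0.10. The lone *ptc1 ptc6* value lay below all 4 of these.

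*DOT6* was the highest of the regulators in each strain. It had 0.37 and 0.18 in *ptc1 ptc6*, 0.39 and 0.60 in *ptc6*, and 0.28 and 0.52 in wild type cells. The 6 values were all positive and all within 2-fold. Their means were 0.27 ± 0.13 in *ptc1 ptc6* cells, 0.50 ± 0.15 in *ptc6* cells and 0.40 ± 0.17 in wild type cells (SD, n = 2 arrays each), or 1.21-fold, 1.41-fold and 1.32-fold higher levels with rapamycin. *DOT6* and *TOD6* are paralogs, and the probes were whole ORFs, so a contribution of *TOD6* cDNA to the *DOT6* spot was not tested.

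Maf1 represses RNA polymerase III when TORC1 is inhibited. *MAF1* had -0.28 and 0.69 in *ptc1 ptc6*, 0.34 and -0.04 in *ptc6*, and 0.25 and 0.03 in wild type cells. The means were 0.21 ± 0.68, 0.15 ± 0.27 and 0.14 ± 0.16 in these strains, close to each other, but the *ptc1 ptc6* arrays lay 0.97 log2 units apart and on both sides of 0. Of the ORFs of that strain 4.05% disagreed by more between the arrays.

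The order of the regulators by mean was alike in the strains, with *RAP1* lowest, *SCH9* next, *HMO1*, *STB3* and *FHL1* in between where they had means, and *MAF1* and *DOT6* highest. Within wild type cells the arrays of *RAP1* did not overlap those of *SCH9*, those of *SCH9* did not overlap those of *STB3*, and those of *MAF1* did not overlap those of *DOT6*. *STB3*, *HMO1* and *MAF1* overlapped their neighbours in between. In *ptc6* cells only *RAP1* at the low end and *DOT6* at the high end were apart from their neighbours. In *ptc1 ptc6* cells all neighbours in the order overlapped. Of the 5 regulators with all values, 3 (*RAP1*, *SCH9* and *DOT6*) kept their sign on all 6 arrays, as did 67.7% of the 3110 ORFs with all values. Likewise 3 of the 5 (*HMO1*, *DOT6* and *MAF1*) stayed within 2-fold on all 6 arrays, as did 53.6% of these ORFs. Both shares include chromosomes XII and XIII, where *ptc1 ptc6* values are not comparable, and were not computed without them.

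The arrays of a strain differ in the dye that carried the rapamycin-treated RNA, so the value with Cy3 minus the value with Cy5 holds any effect of the dye together with the noise of 2 arrays, which cannot be told apart within a strain. For *MAF1* this difference was 0.97 in *ptc1 ptc6* cells, 0.38 in *ptc6* cells and 0.22 in wild type cells, positive each time. For *DOT6* it was -0.19, -0.21 and -0.24 in the same strains, and for *HMO1* it was -0.05, -0.45 and -0.30. These 3 of 5 regulators had a difference of the same sign in all 3 strains, as did 49.7% of 3110 ORFs. That share also includes chromosomes XII and XIII and was not computed without them. *RAP1* had -0.18, 0.20 and -0.25, and *SCH9* had 0.66, -0.10 and 0.37, with the *ptc6* strain opposite to the other 2 in both.

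Across the 3110 ORFs, the dye differences of *ptc1 ptc6* and wild type cells correlated with a Pearson r of 0.41, those of *ptc6* and wild type cells with 0.46, and those of *ptc1 ptc6* and *ptc6* cells with 0.48. The 3110 ORFs include chromosomes XII and XIII, where *ptc1 ptc6* values are not comparable. The r values of that strain were not computed without them. ORFs are not independent replicates, and the strains were hybridized to the same array design with the same dyes. Means of both orientations cancel a constant dye effect, but values from a single array, as for *CRF1* in both strains, *FHL1* in wild type cells and *STB3* in *ptc1 ptc6* cells, do not.

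**Figure D2:**
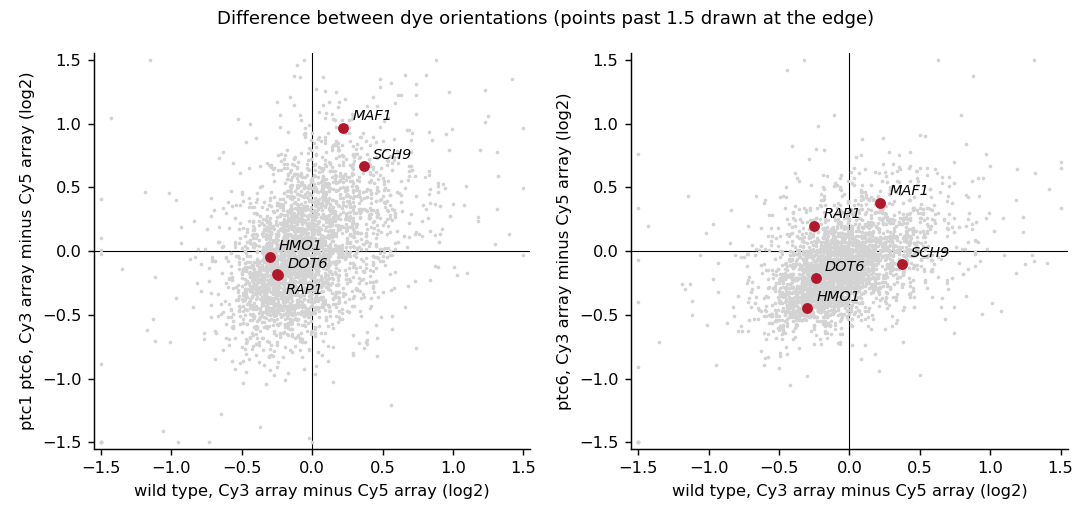
Log2 ratio with rapamycin-treated RNA in Cy3 minus that in Cy5 for wild type cells (horizontal axes) and for *ptc1 ptc6* (left) or *ptc6* cells (right, vertical axes). Grey points are the 3110 ORFs with all values and red points the 5 regulators among them. *MAF1* lies above 0 on every axis, and *DOT6* and *HMO1* below 0.

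Strains were then compared by whether both arrays of one strain lay outside the range of the other. Between *ptc1 ptc6* and wild type cells 0 of 5 regulators were separated in this way, against 46.7% of 3242 ORFs (21.7% with *ptc1 ptc6* higher and 25% with it lower). Between *ptc6* and wild type cells 1 of 6 was separated, with *ptc6* higher, against 30.7% of 3323 ORFs separated in that direction and 17.5% in the other. Between *ptc1 ptc6* and *ptc6* cells 2 of 6 were separated, both with *ptc1 ptc6* lower, against 27.9% of 3557 ORFs in that direction and 14.3% in the other. In either direction 48.1% of ORFs were separated in the comparison of *ptc6* with wild type cells and 42.2% in that of the mutants. These shares include chromosomes XII and XIII, where no regulator lies and *ptc1 ptc6* values are not comparable. Without them, *ptc1 ptc6* was higher than wild type for 19.3% of 2860 ORFs and lower for 23.1%. Between the mutants, *ptc1 ptc6* was then higher for 11.5% of 3078 ORFs and lower for 25.7%. With so few regulators, nothing is concluded from counts of 0, 1 and 2.

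The gene separated between *ptc6* and wild type cells was *RAP1*, whose log2 ratio was less negative in *ptc6* cells by 0.24 on average. The 4 pairs of arrays gave 0.01 to 0.46, and the strains differed by 0.46 with rapamycin-treated RNA in Cy3 and by 0.01 with it in Cy5. With each array centred on its median the *RAP1* ranges overlapped, from -1.28 to -1.02 in *ptc6* cells and from -1.48 to -1.21 in wild type cells. A larger difference between these strains was found for 45% of ORFs. Set against wild type, *ptc1 ptc6* cells had a *RAP1* ratio higher by 0.11 (-0.11 to 0.33 over the pairs).

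*SCH9* and *DOT6* separated the *ptc1 ptc6* strain from the *ptc6* strain. For *SCH9* the difference of means was -0.57, and single pairs of arrays gave -0.95 to -0.18. It was -0.18 with rapamycin-treated RNA in Cy3 and -0.95 with it in Cy5, so its size depended on the arrays set against each other. A larger difference was found for 14.4% of ORFs. These include chromosomes XII and XIII, where the mutants are not comparable, and the share without them was not computed. The separation of *SCH9* remained with arrays centred on their median. Against wild type cells *SCH9* in *ptc1 ptc6* cells was lower by 0.45 on average, but the ranges overlapped, with -0.97 to 0.07 over the pairs. In *ptc6* cells it differed from wild type by 0.12 (-0.12 to 0.35).

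For *DOT6*, *ptc1 ptc6* cells were below *ptc6* cells by a smaller but steadier amount. The difference of means was -0.22, and it was -0.21 in the Cy3 orientation and -0.23 in the Cy5 orientation. Taking all 4 pairs it ran from -0.42 to -0.02, and after centring on the array medians the ranges overlapped. Against wild type cells *DOT6* differed by -0.10 and -0.15 in *ptc1 ptc6* cells, and by 0.11 and 0.08 in *ptc6* cells, in the Cy3 and Cy5 orientations. Each of these differences is below the SD of the wild type arrays, 0.17. Between the mutants 47.4% of ORFs differed more than *DOT6*, a share that also includes chromosomes XII and XIII.

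Counted by direction in both dye orientations, 3 of 5 regulators (*RAP1* higher, *SCH9* and *DOT6* lower) differed the same way between *ptc1 ptc6* and wild type cells, where 68.8% of ORFs did. Between *ptc6* and wild type cells this held for 4 of 6 (*RAP1* and *DOT6* higher, *HMO1* and *STB3* lower), where 71% of ORFs did. *SCH9* and *DOT6* were the 2 of 6 between *ptc1 ptc6* and *ptc6* cells, with 64.7% of ORFs. The 68.8% and 64.7% include chromosomes XII and XIII, where *ptc1 ptc6* values are not comparable, and were not computed without them. *HMO1* in *ptc6* cells was lower than in wild type cells by 0.33 and 0.18 in the Cy3 and Cy5 orientations. *MAF1* had opposite directions in the Cy3 and Cy5 orientations in all 3 comparisons, and its means differed by 0.07 at most.

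**Figure D3:**
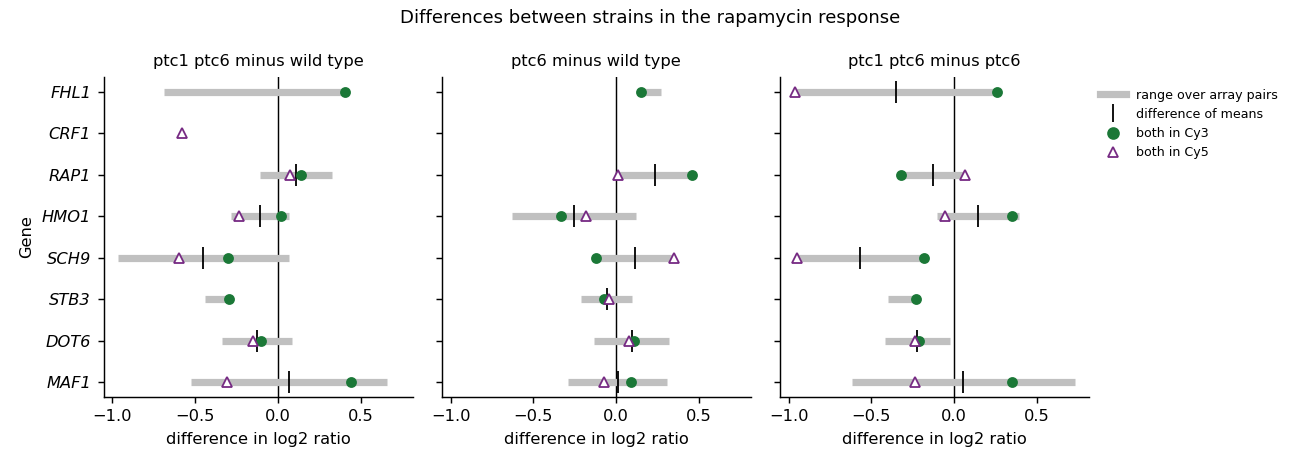
Difference in log2 ratio between strains (horizontal axes) for each regulator with a value, *ptc1 ptc6* minus wild type (left), *ptc6* minus wild type (middle) and *ptc1 ptc6* minus *ptc6* (right). Grey bars span the pairs of arrays, black ticks are differences of means, circles compare arrays with rapamycin-treated RNA in Cy3 and triangles those with it in Cy5. Among genes with both arrays in both strains, the bars of *SCH9* and *DOT6* lie below 0 in the right panel, and that of *RAP1* above 0 in the middle panel, where it begins at 0.01.

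The ribosomal protein genes, whose promoters Rap1, Fhl1 and Hmo1 bind, lay much further from 0 than the mRNAs of the regulators. All of them with both values, outside chromosomes XII and XIII, were below -1, with 101 genes in *ptc1 ptc6*, 102 in *ptc6* and 100 in wild type cells. Their medians were -3.68 in *ptc1 ptc6*, -3.06 in *ptc6* and -3.64 in wild type cells, against 0.05, 0.08 and 0.04 for all ORFs outside the 2 chromosomes. The medians of the regulators with means were -0.26 over 6 genes in *ptc1 ptc6*, -0.12 over 7 in *ptc6* and -0.05 over 6 in wild type cells. *FHL1* lacks a wild type mean and *STB3* a *ptc1 ptc6* mean, so these medians do not rank the strains. Maf1 acts on the RNA polymerase III enzyme and not on the genes of its subunits. Of these genes, 7 of 9 were below -1 in *ptc1 ptc6* cells, 5 of 8 in *ptc6* cells and 5 of 6 in wild type cells. Outside chromosomes XII and XIII 14.6%, 13.7% and 18.1% of ORFs were. The medians of these genes were -1.47, -1.14 and -1.58. The subunits with both values were not the same in each strain, so neither the counts nor the medians rank the strains. *RET1*, which encodes a large subunit, was within 2-fold in every strain, with means of -0.06 in *ptc1 ptc6*, -0.31 in *ptc6* and -0.57 in wild type cells. Also not below -1 were *RPC34* in *ptc1 ptc6* (-0.56) and *RPC37* (-0.94) and *RPC25* (-1.0) in *ptc6* cells.

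**Figure D4:**
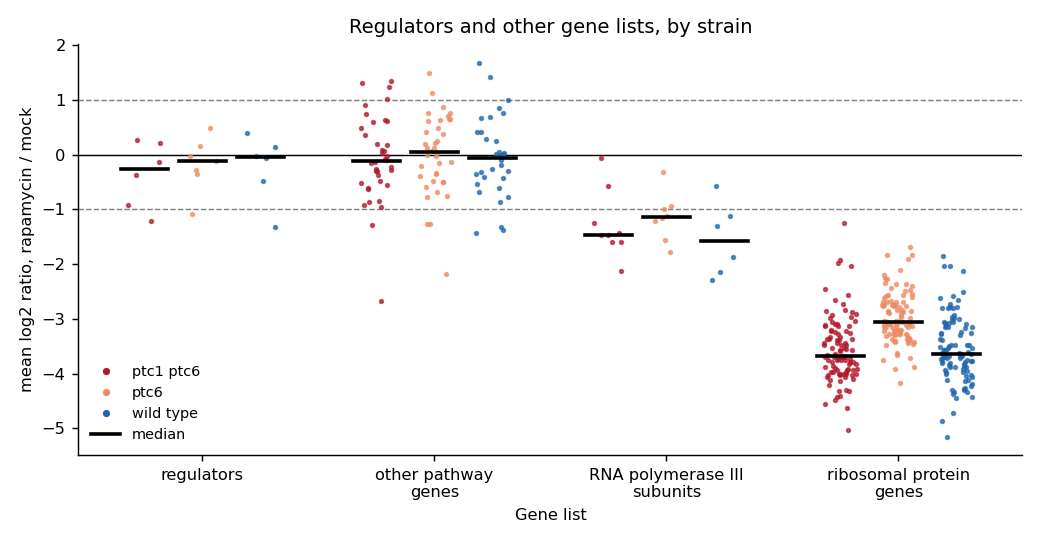
Mean log2 ratio (vertical axis) of the regulators, other genes of the pathway, RNA polymerase III subunits and ribosomal protein genes (horizontal axis), all outside chromosomes XII and XIII, in *ptc1 ptc6* (red), *ptc6* (orange) and wild type cells (blue). Points are genes with both arrays, black bars are medians and dashed lines mark 2-fold. The genes drawn are not the same in each strain, so the medians do not rank the strains. The regulators lie around 0, with medians of -0.26, -0.12 and -0.05, while every ribosomal protein gene drawn is below -1.

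Other genes between TORC1 and the ribosome genes were taken as a list of 48. Of those with both values, 4 were above 1 and 2 below -1 among 42 in *ptc1 ptc6* cells, 2 and 3 among 42 in *ptc6* cells, and 2 and 3 among 35 in wild type cells. Without chromosomes XII and XIII the counts were the same, among 38, 38 and 32 genes. At 2-fold the shares of the list were below those of all ORFs, which were 27.4%, 24.8% and 33.5% in the same strains. At 1.5-fold they were nearer, with 20 of 42, 17 of 42 and 15 of 35 against 48.4%, 44.4% and 52.5%. Those described next, *YAK1*, *TPK3*, *PPH3* and *RXT3*, were past 2-fold on each wild type array.

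*YAK1*, the kinase reported to phosphorylate Crf1, had means of 1.30 in *ptc1 ptc6*, 1.13 in *ptc6* and 1.43 in wild type cells, and was above 1 on every array. *TPK3*, which encodes a catalytic subunit of protein kinase A, had means of -1.29 in *ptc1 ptc6*, -0.78 in *ptc6* and -1.43 in wild type cells. *TPK2*, which encodes another, had 0.63, 0.71 and 0.69 in the same strains and stayed within 2-fold.

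*PPH3*, a PP2A-like phosphatase subunit, had means of -0.96 in *ptc1 ptc6*, -1.26 in *ptc6* and -1.37 in wild type cells. *RXT3*, of the Rpd3L complex that Dot6, Tod6 and Stb3 work with, had -0.93, -1.27 and -1.32. Of the deacetylase itself, *RPD3* had 0.59, 0.64 and 0.67, within 2-fold in all strains. Beyond these, 2 genes of Rpd3L had means above 1 in *ptc1 ptc6* cells with nearby values in wild type cells. *ASH1* had means of 1.24 in *ptc1 ptc6*, 0.76 in *ptc6* and 1.00 in wild type cells, and *SDS3* had 1.02 in *ptc1 ptc6* and 0.86 in wild type cells, with 0.74 on the only *ptc6* array with a value. *UTP22*, which joins Ifh1 and CK2 in a complex with rRNA processing factors, had -2.68 in *ptc1 ptc6* and -2.19 in *ptc6* cells and -2.86 on the only wild type array with a value. Apart from *IFH1*, described below, the other listed genes of this complex stayed within 2-fold on every array. Among them *RRP7* had means of -0.51 in *ptc1 ptc6*, -0.485 in *ptc6* and -0.68 in wild type cells, and the rest were *CKA1*, *CKA2*, *CKB1* and *CKB2* of CK2.

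Ifh1, the partner of Fhl1, and Sfp1, an activator of ribosome biogenesis genes, are encoded on chromosome XII. *IFH1* is listed with -1.20 and -0.47 on the *ptc1 ptc6* arrays, -0.07 and -0.10 on the *ptc6* arrays and -0.32 on wild type array 1. *SFP1* is listed with means of -0.34 in *ptc1 ptc6*, -0.15 in *ptc6* and -0.22 in wild type cells. The *ptc6* and wild type values of *SFP1* overlapped, with -0.23 and -0.06 on the *ptc6* arrays and -0.45 and 0.01 on the wild type arrays. The *ptc1 ptc6* values of both genes are not compared with the others, since that strain did not correlate with them on this chromosome.

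For each regulator with all 6 values, the ORFs with the most similar values were found by Euclidean distance over the 6 arrays among 2733 ORFs outside chromosomes XII and XIII. The nearest to *RAP1* were *DIN7* (a distance of 0.16 log2 units), *HMS2* (0.25) and *CWC2* (0.31). *SCH9* was less closely matched, with YHR127W (0.27), *HHF2* (0.40) and *YCK2* (0.43), and *HHF2* had means of -1.03 in *ptc1 ptc6*, -0.41 in *ptc6* and -0.59 in wild type cells. *DOT6* had *FCY2* (0.14), *TMA17* (0.15) and *AVT1* (0.19) beside it. Nearest to *HMO1* were *THR4* (0.23), *RPB7* (0.27) and YGL185C (0.29), and to *MAF1* they were *SNF5* (0.26), YIL060W (0.29) and *ULP1* (0.29). Profiles like that of *DOT6* were common, with 5.34% of ORFs within 0.5 log2 units of it, against 2.82% for *HMO1*, 0.842% for *MAF1*, 0.659% for *RAP1* and 0.183% for *SCH9*. All profiles share the same 6 arrays.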

How the data were processed

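The authors hybridized Cy3- and Cy5-labelled cDNA to arrays of PCR-amplified ORFs, scanned them, quantified them with GenePix Pro, left out small or dim spots, and deposited log2 ratios (rapamycin-treated over mock-treated) per ORF on every array, after preprocessing with GEPAS. The method of normalization and the genome build are not given in the sources used here. Spot intensities were not used, which leaves signal over background unknown. Precision is limited by the number of arrays.

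The deposited values were used as they are. A strain's value was the mean of both log2 ratios where both were present, and 2-fold was the threshold in the study's methods. The 2 arrays of a strain hold the same RNA and count as 1 biological sample, so no test was made. Of the ORF names 5639 matched locus tags of the R64 gene table, used for names only. Ribosomal protein genes were taken by symbol (RPL, RPS, RPP), without *RPP1*, an RNase P subunit. Regulators and lists were chosen with earlier results of these data known. Every regulator was named, with the 3 nearest ORFs of those with all values and those listed genes that passed 2-fold on each wild type array, of which 1 is not reported here. *RPD3*, *TPK2*, *UTP22* and the other genes of its complex, *RET1* and the other named polymerase subunits, *ASH1*, *SDS3* and the general regulatory factors were added after their values were seen.

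Alternatives were arrays centred on their median, means of linear ratios, a value on at least 1 array, a limit of 1.5-fold or 3-fold, a call on each array separately, each array left out, and chromosomes XII and XIII left out. Comparison within a dye orientation was chosen after seeing the data. Counting steps were tested on simulated data. Python 3.11.15, numpy 2.4.6, pandas 2.3.3 and matplotlib 3.10.9 were used.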

Additional observations from a re-analysis of the deposited data

Results flagged for a closer look

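In 2 genes of the pathway list every array of one strain lay on the other side of 0 from every array of another. None of the 9 regulators did so. *MRS6*, the partner of Sfp1, had -0.26 and -0.06 in *ptc1 ptc6*, 0.10 and 0.13 in *ptc6*, and -0.20 and -0.01 in wild type cells, so that *ptc6* minus wild type was 0.22 and *ptc1 ptc6* minus *ptc6* was -0.27, with all values near 0. *SAP30*, of Rpd3L, is listed with 0.66 and 0.59 in *ptc1 ptc6*, -0.62 and -0.26 in *ptc6*, and -0.68 and -0.29 in wild type cells. The *ptc1 ptc6* strain was higher by 1.11 than wild type and by 1.07 than *ptc6*, but the gene is on chromosome XIII, where the *ptc1 ptc6* values are not comparable with those of the other strains. None of these differences was tested.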

How the results depend on the processing

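No paired analysis was possible because no test was made, and the array numbers mark dye-swapped arrays of the same RNA. Promoter motifs were not searched, since no promoter sequences were used here. *RAP1* was the 1 regulator past 2-fold in each strain with arrays centred, with linear means, with a value on at least 1 array and without chromosomes XII and XIII. At 3-fold the count was 0 in each strain, against 14.1%, 13.1% and 19.6% of ORFs in *ptc1 ptc6*, *ptc6* and wild type cells. At 1.5-fold it was 2 of 6 in *ptc1 ptc6* cells, with *SCH9*, against 48.4% of ORFs. With 2-fold required on each array it was 0 of 7 in *ptc6* cells, against 21.4% of ORFs. Leaving out 1 array gave 1 to 2 in *ptc1 ptc6* cells (2 of 7 without array 2, with *SCH9*, against 27.3% of ORFs), 0 to 1 in *ptc6* cells (0 of 7 without array 2, against 25.6%) and 1 in wild type cells. The pathway list, with its genes on chromosomes XII and XIII, had 42, 42 and 35 genes with both values in *ptc1 ptc6*, *ptc6* and wild type cells. Of these, 20, 17 and 15 were past 1.5-fold, against 48.4%, 44.4% and 52.5% of ORFs. Past 3-fold was 1 in each, against 14.1%, 13.1% and 19.6%. At 2-fold 6, 5 and 5 passed, against 27.4%, 24.8% and 33.5%. Leaving out 1 array gave 7 to 8 in *ptc1 ptc6* (27.3% to 29.8% of ORFs) and 5 to 8 in *ptc6* cells (25% to 25.6%, with 8 without array 2). In wild type cells it gave 6 to 7 (33.9% to 34%).

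Centring gave 0 of 6 separated regulators between *ptc6* and wild type cells (*RAP1* was lost), against 49.8% of ORFs, and 1 of 6 between *ptc1 ptc6* and *ptc6* cells (*SCH9*, with *DOT6* lost), against 42.6%. With 1 array left out, a range narrows to a point and separation is easier, which gave 2 to 3 regulators between *ptc1 ptc6* and wild type (66.7% to 79.9% of ORFs), 3 to 4 between *ptc6* and wild type (72.1% to 75.1%), and 3 to 6 between *ptc1 ptc6* and *ptc6* cells (64.6% to 78% of ORFs, with 6 of 7 regulators without *ptc1 ptc6* array 1). By direction in both dye orientations, chosen after seeing the data, 3, 4 and 2 regulators differed in these comparisons. The shares of ORFs in this paragraph include chromosomes XII and XIII, where *ptc1 ptc6* values are not comparable with those of the other strains. Within a single dye orientation, 10 differences of *FHL1*, *RAP1* and *SCH9* moved by more than the SD of the arrays. With 1 array left out, *FHL1* in *ptc1 ptc6* minus *ptc6* cells was 0.20 without *ptc1 ptc6* array 1, against -0.35 with all arrays, and *MAF1* in *ptc1 ptc6* minus wild type cells ran from -0.42 to 0.55.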
